A study of Mus musculus with 6 samples.

Results

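Lymphatic endothelium of the mouse lung was represented by 195 of the 43545 cell barcodes in 6 single-cell RNA-seq libraries. A barcode was counted as lymphatic endothelial when it had at least 500 genes and at most 10% mitochondrial UMIs, at least 2 of 5 genes shared by all endothelium (*Egfl7*, *Tie1*, *Cldn5*, *Cdh5* and *Pecam1*), and at least 2 of the 4 lymphatic genes *Prox1*, *Mmrn1*, *Reln* and *Ccl21a*, among them *Prox1* or *Mmrn1*. A unique molecular identifier (UMI) counts 1 captured RNA molecule, and a gene was taken as detected at 1 UMI or more. The members were thus chosen by measured values, and the levels of these 9 genes are given below as a description without a test.

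The libraries came from lungs of female WT littermates and of TNF-Tg mice, a line with a TNF transgene that develops inflammatory arthritis and pulmonary vascular disease, aged 8, 14 or 20 weeks, with 1 library for each genotype and age. Lungs of several mice were pooled within a library, so that mice cannot be told apart, and live cells were sorted as CD45-/CD326-, which depletes leukocytes and epithelial cells. The cells that express the transgene are not given in the sources used here, and the transgene itself was not read here. The 3 ages served as the 3 libraries of a genotype, and p-values measure the spread between these libraries, change with age included. Values are listed below in the order 8, 14 and 20 weeks.

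Lymphatic vessels return tissue fluid to the blood and carry leukocytes and antigen to lymph nodes. Their endothelium is set apart from blood endothelium by the transcription factor PROX1, grows in response to VEGF-C through the receptor encoded by *Flt4*, and in the initial, blind-ended vessels carries LYVE1 and secretes CCL21, which draws in dendritic cells and T cells. Initial vessels empty into collecting vessels, whose valves depend on FOXC2, GATA2, connexins and the binding of fibronectin by the integrin chain encoded by *Itga9*. In inflamed airways lymphatic vessels can sprout and widen, and TNF acts on endothelium through its receptors and the NF-kB transcription factors.

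The WT libraries held 10, 21 and 40 lymphatic endothelial barcodes with 53722, 128321 and 294157 UMIs in sum, and the TNF-Tg libraries held 28, 30 and 66 with 196026, 363179 and 862061. The median member had 4073.5, 4458 and 5176.5 UMIs in WT and 5579.5, 10397.5 and 12164 in TNF-Tg libraries. A single member of the WT library of 20 weeks had 89915 UMIs and made up 30.6% of its library's sum. Libraries shared 6 to 24 barcode sequences a pair, 212 over all pairs. Of the members, 0, 0 and 5 WT and 3, 1 and 12 TNF-Tg barcodes were among those with the highest doublet scores, and 0, 5 and 2 WT and 4, 13 and 13 TNF-Tg members had UMIs of at least 2 genes of another lineage. Both depth and these mixed profiles moved with genotype, and their part in the results was not tested beyond the fits without such members that are given beside the results.

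Lymphatic genes that the rule did not use were read to check the name. Among 25 such markers, the median member with all 4 rule genes (n = 129) had 19, a member with 3 (n = 34) had 18 and a member with 2 (n = 32), just inside the threshold, had 14.5. Of the endothelial barcodes just outside it, those with 1 rule gene (n = 622) had a median of 4 and those with none (n = 31791) a median of 3. Their highest counts were 21 and 16 markers, so some barcodes outside the rule had as many markers as members did. *Flt4* was at 454 to 1200 CPM in the 6 libraries of members and at 28.4 to 63.1 CPM in endothelial barcodes with none of the 4 lymphatic genes, which are called other endothelium below. CPM are a gene's UMIs per 1000000 UMIs of the summed barcodes. *Epcam* and *Cdh1*, which define epithelium, were at 0 in the members of all 6 libraries, and *Ptprc*, which encodes CD45, was at 0 in 5 of them. Other genes of these lineages were present. Members had UMIs of 5 of 7 epithelial genes in the TNF-Tg library of 8 weeks. In that of 20 weeks they had UMIs of 8 of 9 immune genes (145 UMIs). Mesenchymal genes held 1310 UMIs in the TNF-Tg library of 14 weeks, where 13 of 30 members had at least 2 of them. By the 25 lymphatic markers the label fits most members. Some of those near the threshold showed few lymphatic markers, as low as 2 of 25. The largest TNF-Tg member, in the library of 14 weeks, had 41236 UMIs and made up 11.4% of its library's sum. It had 4 of the 25 markers, 1 UMI each of *Mmrn1* and *Ccl21a* and genes of another lineage, so the label is doubtful for it.

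The share of lymphatic barcodes among endothelial barcodes was 0.183%, 0.383% and 0.642% in WT and 0.457%, 0.595% and 1.55% in TNF-Tg libraries. It was higher in TNF-Tg at each age, by 2.5, 1.56 and 2.42 times, and it was also higher at the later ages within each genotype, so that the genotypes overlapped. For counting error alone, 95% intervals (Clopper-Pearson) were 0.459% to 0.874% for WT and 1.20% to 1.97% for TNF-Tg at 20 weeks. The mean was 0.403% ± 0.230 (SD, n = 3) in WT and 0.869% ± 0.598 (n = 3) in TNF-Tg, and the difference did not pass the two-sided exact permutation test over libraries (p = 0.3, where 0.1 is the smallest p that 3 libraries against 3 allow). Among all kept barcodes the means were 0.359% ± 0.210 and 0.660% ± 0.332 (exact permutation p = 0.3).

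TNF-Tg barcodes were deeper, and a share that rests on detected genes can move with depth. With every barcode thinned to 1000 UMIs, the share was 0.134%, 0.352% and 0.535% in WT and 0.379%, 0.479% and 0.801% in TNF-Tg libraries (exact permutation p = 0.4). TNF-Tg was still higher at each age, by 2.83, 1.36 and 1.5 times. Among all kept barcodes the ratio of TNF-Tg to WT was 2.73, 1.49 and 1.81 before thinning and 3.05, 1.23 and 1.03 after it, so that at 20 weeks the genotypes were close on that base. A rule on *Prox1*, *Mmrn1* and *Flt4* alone, added after the data had been seen because *Ccl21a* and *Reln* were low in some TNF-Tg libraries, counted 17, 27 and 45 WT and 46, 43 and 81 TNF-Tg barcodes (exact permutation p = 0.1, the smallest possible). Of these, 9, 21 and 40 WT and 26, 28 and 65 TNF-Tg barcodes were members by the main rule. The count was not repeated with thinned barcodes, although *Flt4* also had UMIs in other endothelium and TNF-Tg barcodes were deeper. Without the TNF-Tg library of 20 weeks the difference in mean share fell from 0.466 to 0.123 percentage points.

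**Figure D1:**
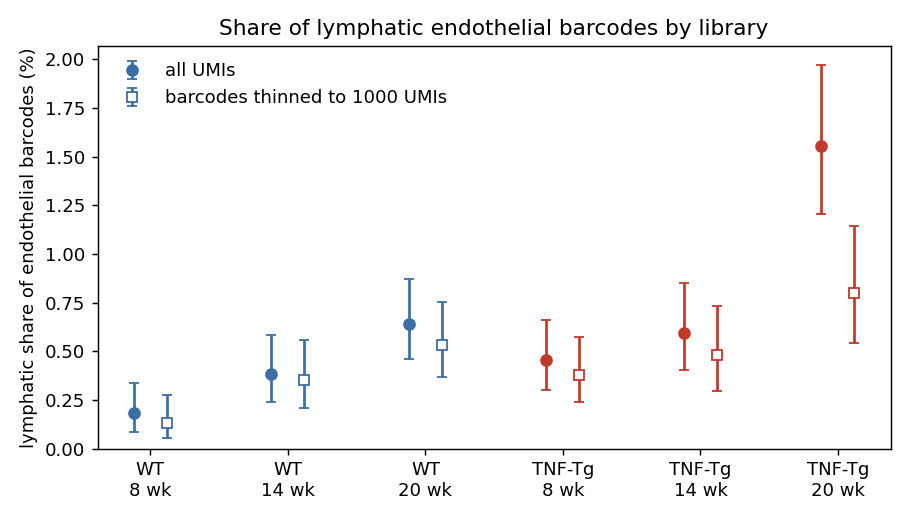
Lymphatic endothelial barcodes as a percentage of endothelial barcodes (y axis) in each of the 6 libraries (x axis, genotype and age), with all UMIs (filled circles) and after thinning every barcode to 1000 UMIs (open squares). Bars are exact 95% intervals for counting error. The TNF-Tg library of 20 weeks stood highest in both, at 1.55% and 0.801%.

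The rule genes themselves differed in how they varied. *Prox1*, the regulator of lymphatic identity (chr1:190118035-190170714 on GRCm38), was at 354, 546 and 585 CPM in WT against 694, 493 and 628 CPM in TNF-Tg members, and the genotypes overlapped. *Ccl21a*, which encodes the chemokine CCL21 (chr4:42772860-42773993), was at 17460, 34344 and 29512 CPM in WT against 33444, 13299 and 7054 CPM in TNF-Tg members. *Reln*, which encodes the secreted glycoprotein reelin, was at 1210, 1333 and 1016 CPM in WT against 852, 212 and 241 CPM in TNF-Tg members. *Ccl21a* was thus lowest in TNF-Tg at 14 and 20 weeks. *Reln* and *Mmrn1* (3388, 4458 and 4382 CPM in WT against 3520, 1313 and 1650 CPM in TNF-Tg) were also lowest in these libraries, though at 14 rather than 20 weeks. *Ccl21a* has near-identical gene copies, so that its reads may be split between them, and its level is uncertain for that reason. The 5 pan-endothelial genes differed less, with *Cdh5* at 652, 733 and 724 CPM in WT against 607, 512 and 633 CPM in TNF-Tg members.

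Of the 25 lymphatic markers outside the rule, 24 had enough UMIs to be tested between genotypes with edgeR's quasi-likelihood test and Benjamini-Hochberg adjustment (edgeR FDR), and 1 passed at an FDR under 0.05. Over all 4165 genes tested, 51 (1.22%) passed, 35 (0.84%) higher and 16 (0.384%) lower in TNF-Tg. The counts in the gene lists below are to be set against these shares. The count changed with each library left out. It fell to 20, 11 and 3 without the WT library of 8, 14 or 20 weeks. It rose to 261 without the TNF-Tg library of 8 weeks and fell to 27 and 9 without that of 14 or 20 weeks. The marker that passed was *Fgl2*, which encodes a secreted fibrinogen-like protein. It was at 1061, 795 and 1166 CPM in WT against 439, 328 and 269 CPM in TNF-Tg members, a log2 fold change of -1.59 (SE 0.25, edgeR FDR 0.00774). Without members that had genes of other lineages its FDR was 0.0567. The median log2 fold change of the 24 markers was -0.27, against 0.00 over all genes tested.

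Some further markers differed in level between genotypes without passing the test. *Lyve1*, which encodes a hyaluronan receptor, was at 3127, 1496 and 1683 CPM in WT against 1036, 633 and 1020 CPM in TNF-Tg members (log2 fold change -1.23, SE 0.29, edgeR FDR 0.0653). A single member held 119 of its 168 UMIs in the WT library of 8 weeks and 280 of 495 in that of 20 weeks. *Flt4* was at 931, 1099 and 1200 CPM in WT against 837, 454 and 496 CPM in TNF-Tg members (-0.90, SE 0.25, edgeR FDR 0.119). For both genes each TNF-Tg library lay below each WT library, as for 263 of all genes tested (6.31%). *Sema3d*, a semaphorin gene, was at 391, 257 and 333 CPM in WT against 490, 542 and 554 CPM in TNF-Tg members (0.71, SE 0.23, edgeR FDR 0.180), and each TNF-Tg library lay above each WT library, as for 9.46% of all genes tested. *Mrc1*, from the list of leukocyte adhesion genes, which encodes a mannose receptor of lymphatic endothelium and macrophages, was at 335, 397 and 452 CPM in WT against 316, 63.3 and 109 CPM in TNF-Tg members (-1.45, SE 0.44, edgeR FDR 0.152). *Nts*, which encodes the neuropeptide precursor neurotensin, varied most among the markers, with 614, 109 and 275 CPM in WT against 122, 765 and 3575 CPM in TNF-Tg members (2.31, SE 0.86, edgeR FDR 0.273). It was highest in the TNF-Tg library of 20 weeks, where 55 of 66 members had its UMIs and 1 member held 970 of 3082. *Pdpn* (podoplanin), *Nr2f2*, *Maf*, *Tbx1*, *Cp*, *Fxyd6* and *Klhl4* lay within log2 fold changes of -0.68 and 0.09.

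**Figure D2:**
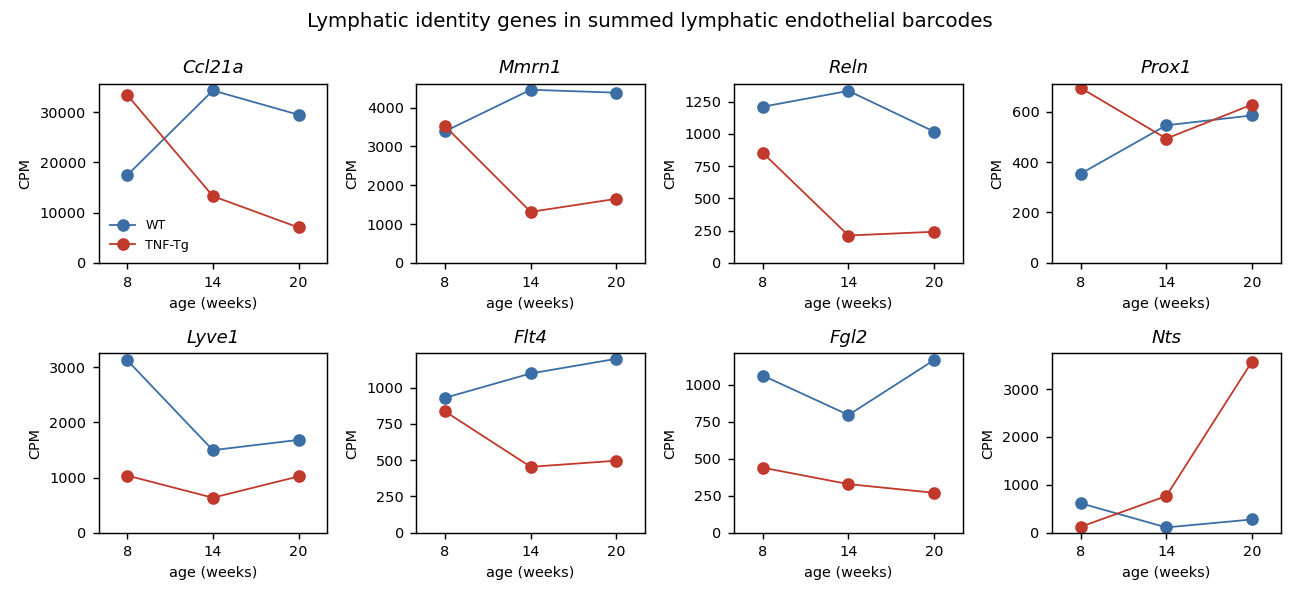
CPM (y axes, each from 0) of 8 lymphatic genes in the summed members of each library against age in weeks (x axes), WT in blue and TNF-Tg in red, 1 point a library. *Ccl21a*, *Mmrn1*, *Reln* and *Prox1* belong to the rule. *Ccl21a* fell from 33444 to 7054 CPM between the TNF-Tg libraries of 8 and 20 weeks, and *Lyve1*, *Flt4* and *Fgl2* were lower in each TNF-Tg than in each WT library.

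Genes of collecting vessels and valves included some of the largest differences. Of 14 genes listed, 13 were tested, 3 were higher in TNF-Tg and none was lower, against 0.84% and 0.384% of all genes tested. The median log2 fold change was 0.26. *Cldn11*, which encodes a tight junction claudin found in lymphatic valves (chr3:31149920-31164324), was at 0, 7.79 and 13.6 CPM in WT against 138, 223 and 297 CPM in TNF-Tg members, a log2 fold change of 4.40 (SE 0.51, edgeR FDR 0.00188). Its UMIs lay in 3 of 71 WT members and in 8 of 28, 19 of 30 and 55 of 66 TNF-Tg members, so the difference did not rest on few cells, and other endothelium held at most 0.160 CPM. *Fn1*, the gene of fibronectin, was at 93.1, 15.6 and 37.4 CPM in WT against 199, 840 and 880 CPM in TNF-Tg members, 16.5 times higher (log2 4.04, SE 0.61, edgeR FDR 0.00774). *Gja4*, which encodes the connexin of lymphatic valves and of arteries, was at 130, 85.7 and 105 CPM in WT against 326, 256 and 331 CPM in TNF-Tg members (log2 1.54, SE 0.27, edgeR FDR 0.0178).

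Another connexin gene and the integrin gene of valves did not pass the test. *Gja1* was at 577, 452 and 612 CPM in WT against 806, 234 and 179 CPM in TNF-Tg members (log2 -0.51, SE 0.45, edgeR FDR 0.765), with TNF-Tg libraries on both sides of WT. *Itga9* was at 316, 242 and 333 CPM in WT against 245, 218 and 235 CPM in TNF-Tg members (log2 -0.38, SE 0.23, edgeR FDR 0.603). *Foxc2* had too few UMIs to be tested, 1, 0 and 7 in WT and 7, 23 and 69 in TNF-Tg members, or 18.6, 0 and 23.8 CPM against 35.7, 63.3 and 80.0 CPM. *Gata2* was at 18.6, 101 and 37.4 CPM in WT against 40.8, 44.1 and 84.7 CPM in TNF-Tg members (log2 0.17, SE 0.48, edgeR FDR 0.958), and the genotypes overlapped. *Foxp2*, the gene of another transcription factor, was at 18.6, 46.8 and 44.2 CPM in WT against 71.4, 88.1 and 87.0 CPM in TNF-Tg members (log2 0.996, SE 0.35, edgeR FDR 0.247). Each TNF-Tg library lay above each WT library, as for 9.46% of all genes tested.

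Among 23 ligands and receptors of lymphatic growth, 13 were tested, 1 was higher in TNF-Tg and none was lower. *Igf1*, which encodes insulin-like growth factor 1, had 0, 1 and 2 UMIs in WT and 13, 28 and 67 UMIs in TNF-Tg members. That is 0, 7.79 and 6.80 CPM against 66.3, 77.1 and 77.7 CPM, a ratio of pooled CPM of 12.1 with an exact counting interval of 4.02 to 59.4 (edgeR FDR 0.00774). The 3 TNF-Tg libraries were close to each other and all above WT. *Igf1* did not pass without the WT library of 14 or 20 weeks or the TNF-Tg library of 20 weeks (edgeR FDR up to 0.209). Without members that had genes of other lineages it could not be tested. *Kdr*, which encodes a VEGF receptor shared with blood endothelium, was at 652, 686 and 755 CPM in WT against 745, 529 and 480 CPM in TNF-Tg members (log2 -0.30, SE 0.23, edgeR FDR 0.731). *Adm*, which encodes the lymphangiogenic peptide adrenomedullin, had too few UMIs to be tested. It was at 0, 39.0 and 40.8 CPM in WT against 30.6, 88.1 and 274 CPM in TNF-Tg members, and its 236 UMIs at 20 weeks lay in 10 of 66 members.

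**Figure D3:**
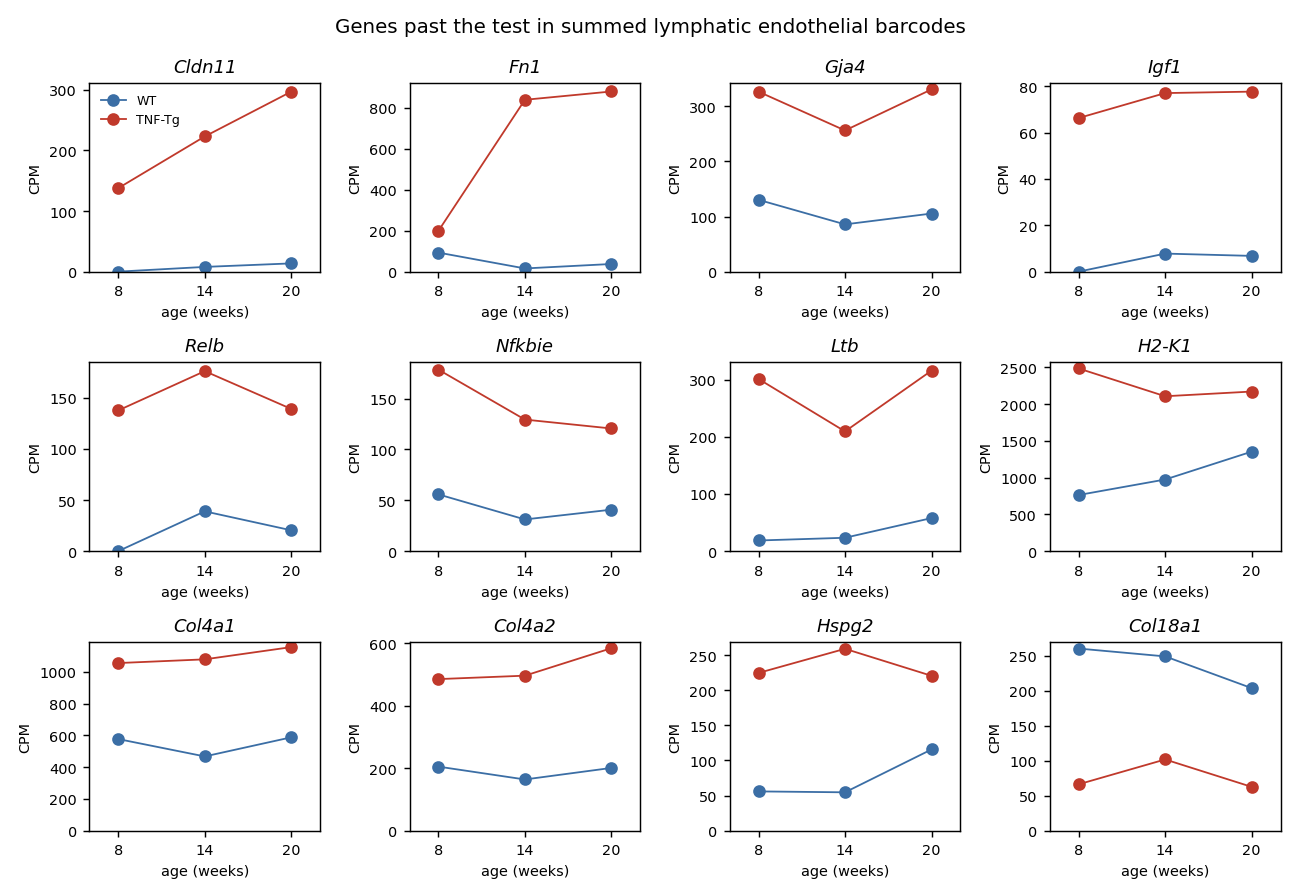
CPM (y axes, each from 0) of 12 genes past the edgeR test in the summed members of each library against age in weeks (x axes), WT in blue and TNF-Tg in red, 1 point a library. The genotypes did not overlap for any of the 12. *Col18a1* was lower in TNF-Tg, at 62.6 to 102 CPM against 204 to 261 CPM, and the other 11 were higher.

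Genes of the NF-kB pathway were next. Of 33 genes of TNF receptors and NF-kB, 16 were tested, 2 were higher and none was lower in TNF-Tg, with a median log2 fold change of 0.90. *Relb*, a transcription factor of the alternative NF-kB pathway, was at 0, 39.0 and 20.4 CPM in WT against 138, 176 and 139 CPM in TNF-Tg members (log2 2.68, SE 0.42, edgeR FDR 0.00774). *Nfkbie*, which encodes an NF-kB inhibitor, was at 55.8, 31.2 and 40.8 CPM in WT against 179, 129 and 121 CPM in TNF-Tg members (log2 1.77, SE 0.34, edgeR FDR 0.0272, and 0.0854 without the largest member of each library). A further 5 genes, *Nfkbia*, *Nfkb2*, *Bcl3*, *Birc3* and *Tnip1*, were higher in each TNF-Tg than in each WT library without passing the test, as were 394 of all genes tested (9.46%) with those that passed. *Nfkbia* was at 428, 218 and 320 CPM in WT against 638, 617 and 676 CPM in TNF-Tg members (log2 1.03, SE 0.25, edgeR FDR 0.0719). *Tnfrsf1a*, which encodes the main TNF receptor of endothelium, was at 93.1, 117 and 143 CPM in WT against 91.8, 88.1 and 83.5 CPM in TNF-Tg members (log2 -0.54, SE 0.27, edgeR FDR 0.460). For this gene each TNF-Tg library lay below each WT library, as for 6.31% of all genes tested. *Il6* had no UMI in any member.

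*Ltb*, which encodes lymphotoxin beta, a membrane-bound cytokine of the TNF family that signals to the alternative NF-kB pathway, was among the genes of largest change outside this list. It was at 18.6, 23.4 and 57.8 CPM in WT against 301, 209 and 316 CPM in TNF-Tg members, 6.52 times higher (log2 2.70, SE 0.37, edgeR FDR 0.00528). It was also 1 of the 3 genes that passed without the WT library of 20 weeks (edgeR FDR 0.0409), with *Ifi27l2a* (0.00760) and *Tmem176b* (0.00131). The neighbours *Tmem176b* and *Tmem176a*, which encode a pair of membrane proteins of antigen-presenting cells, rose together. *Tmem176b* was at 18.6, 31.2 and 116 CPM in WT against 796, 782 and 733 CPM in TNF-Tg members, 10.5 times higher (log2 3.39, SE 0.38, edgeR FDR 0.00188). *Tmem176a* was at 0, 125 and 116 CPM in WT against 770, 675 and 612 CPM in TNF-Tg members (log2 2.78, SE 0.39, edgeR FDR 0.00638). The pair overlaps head to head on chromosome 6 (*Tmem176b* 48833818-48841496 on the minus strand, *Tmem176a* 48840919-48847071 on the plus strand).

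Promoter sequence was read for these genes because several lie in the TNF and NF-kB pathway. The letters GGG, any 2 bases and TTTCC were searched on both strands from 250 bases before to 50 bases after each gene start in RefSeq's promoters of GRCm38.p6. This spelling of the NF-kB binding motif was taken after several had been looked at. It was found for 4 of the 27 genes higher in TNF-Tg that had a promoter entry (14.8%), for 0 of 15 lower genes, for 8 of 27 genes of the NF-kB list and for 512 of all 27025 genes (1.89%). The 4 were *Ltb*, *Ifngr2* (an interferon gamma receptor chain), *Tmem176a* and *Tmem176b*, of which the last 2 share 1 match. A looser form with any 3 bases between GGG and TTCC, which takes in the first, was found for 6 of the 27 higher genes, for 1 of 15 lower genes and for 6.31% of all genes. The matches are shown in capitals within 30 bases on the strand of the gene, with that of *Nfkbia*, a well-known NF-kB target, for comparison:
*Ltb*, chr17:35194410-35194439, plus strand: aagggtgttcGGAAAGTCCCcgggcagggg
*Ifngr2*, chr16:91546974-91547003, plus strand: ggaacaccggGGAAAGTCCCcacgggccgg
*Tmem176b*, chr6:48841387-48841416, minus strand: ggcccctttaGGGGTTTTCCagcaggcagc
*Nfkbia*, chr12:55492657-55492686, minus strand: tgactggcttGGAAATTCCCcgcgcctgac
The matches of *Ltb* and *Ifngr2* had the same 10 letters. A match is a description of the letters in this window and not a site of binding.

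Genes of antigen presentation on MHC class I came next. Of 13 genes listed, 12 were tested, 1 passed as higher and none as lower, against 0.84% higher and 0.384% lower over all genes tested. The median log2 fold change was 0.61. In 10 of the 12 each TNF-Tg library lay above each WT library, as for 9.46% of all genes tested. *H2-K1*, a classical class I heavy chain gene, was at 763, 974 and 1353 CPM in WT against 2484, 2106 and 2170 CPM in TNF-Tg members (log2 1.08, SE 0.22, edgeR FDR 0.0333, and 0.0633 with age as a block). *B2m*, the gene of the light chain, was at 819, 1777 and 1703 CPM in WT against 2862, 2996 and 3490 CPM in TNF-Tg members (log2 1.07, SE 0.25, edgeR FDR 0.0630). *H2-D1* was at 1452, 1730 and 1992 CPM in WT against 2969, 2464 and 2997 CPM in TNF-Tg members (log2 0.67, SE 0.19, edgeR FDR 0.119). Class I heavy chain genes are alike in sequence, and reads may be shared between them. Of 9 class II genes, 2 were tested and neither passed.

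Among 34 interferon-stimulated genes, 21 were tested and 1 was higher in TNF-Tg. *Ifi27l2a*, an interferon-induced gene, was at 168, 187 and 503 CPM in WT against 1199, 1784 and 2185 CPM in TNF-Tg members, 5.44 times higher (log2 2.44, SE 0.36, edgeR FDR 0.00760). A widely used interferon gene did not pass the test. *Isg15* was at 93.1, 62.3 and 126 CPM in WT against 112, 187 and 218 CPM in TNF-Tg members (log2 0.83, SE 0.33, edgeR FDR 0.328). The median log2 fold change of the 21 genes was 0.32.

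Chemokine genes were mostly below the level needed for a test, with 3 of 18 tested and none called. Without a filter on low counts, 209 of 14954 genes (1.40%) were higher and 80 (0.535%) lower, among them *Ccl2*, *Ccl7*, *Cxcl10* and *Ackr4* as higher. That fit also gave *Nts* an edgeR FDR of 9.43e-18, against 0.273 with the filter, and no call is taken from it here. *Ccl2*, which encodes a monocyte attractant, had 0, 0 and 2 UMIs in WT and 2, 306 and 278 UMIs in TNF-Tg members, of which 231 and 170 lay in 1 member each at 14 and 20 weeks. *Ackr4*, which encodes a receptor that takes up CCL21 and marks collecting and subcapsular lymphatic endothelium, had 0, 2 and 0 UMIs in WT and 1, 51 and 187 UMIs in TNF-Tg members, in 14 of 66 members at 20 weeks. Both were near 0 in all 3 WT libraries and in the TNF-Tg library of 8 weeks. *Ackr2*, a scavenger of inflammatory chemokines, was at 37.2, 109 and 129 CPM in WT against 143, 102 and 180 CPM in TNF-Tg members (log2 0.42, SE 0.34, edgeR FDR 0.741).

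Of 20 genes of leukocyte adhesion and sphingosine phosphate export, 10 were tested and 1 was higher in TNF-Tg. *Jam3*, which encodes a junctional adhesion molecule, was at 0, 39.0 and 61.2 CPM in WT against 163, 182 and 282 CPM in TNF-Tg members (log2 2.22, SE 0.42, edgeR FDR 0.0265, and 0.0547 without the largest member of each library). *Icam1* was at 0, 93.5 and 17.0 CPM in WT against 71.4, 138 and 83.5 CPM in TNF-Tg members (log2 1.36, SE 0.59, edgeR FDR 0.371). *Vcam1*, below the level for a test, was at 0, 39.0 and 6.80 CPM in WT against 25.5, 162 and 261 CPM in TNF-Tg members. The *Vcam1* UMIs at 20 weeks lay in 24 of 66 members, and 96 of 225 in 1 of them, while other endothelium held 104, 166 and 254 CPM in the same TNF-Tg libraries. Of the 15 junction genes 12 were tested, and *Jam3* and *Cldn11* were the 2 that passed, against 1.22% of all genes tested.

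Matrix genes changed in both directions. Of 23 genes of basement membrane and matrix, 17 were tested, 5 were higher and 1 was lower in TNF-Tg. *Col4a1* and *Col4a2*, the paired genes of the main type IV collagen chains, rose by 1.99 and 2.73 times. *Col4a1* was at 577, 468 and 588 CPM in WT against 1056, 1079 and 1157 CPM in TNF-Tg members (log2 1.0, SE 0.20, edgeR FDR 0.0333), and *Col4a2* at 205, 164 and 201 CPM against 485, 496 and 583 CPM (log2 1.45, SE 0.23, edgeR FDR 0.00774). *Hspg2*, the gene of perlecan, was at 55.8, 54.6 and 116 CPM in WT against 224, 259 and 220 CPM in TNF-Tg members (log2 1.44, SE 0.31, edgeR FDR 0.0437). In each of these genes the WT and TNF-Tg libraries were apart, but with age as a block *Col4a1* was at an edgeR FDR of 0.0838 and *Hspg2* at 0.0771. *Igfbp7*, which encodes a vascular binding protein of insulin-like growth factors, was at 74.5, 538 and 306 CPM in WT against 928, 3742 and 1563 CPM in TNF-Tg members (log2 2.64, SE 0.53, edgeR FDR 0.0310). A single member held 948 of its 1359 UMIs in the TNF-Tg library of 14 weeks, and without the largest member of each library its log2 fold change was 1.67 (edgeR FDR 0.0300), while without doublets it was at 0.0519.

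*Col18a1*, whose collagen chain is cut to give endostatin (chr10:77052178-77166548), went the other way. It was at 261, 249 and 204 CPM in WT against 66.3, 102 and 62.6 CPM in TNF-Tg members, 3.06 times lower (log2 -1.61, SE 0.29, edgeR FDR 0.0187). *Timp3*, which encodes a metalloproteinase inhibitor of the matrix, was at 1731, 2166 and 2335 CPM in WT against 1301, 1280 and 894 CPM in TNF-Tg members (log2 -0.87, SE 0.21, edgeR FDR 0.0732). *Lama4*, a laminin chain gene of endothelium, was at 447, 444 and 442 CPM in WT against 556, 308 and 328 CPM in TNF-Tg members (log2 -0.20, SE 0.26, edgeR FDR 0.855), and it overlapped between genotypes.

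The 10 genes with the largest rise among those past the test, at 50 CPM or more and without overlap, included *Cldn11*, *Fn1*, *Igf1* and the *Tmem176* pair above and 5 more. *Gdf10*, which encodes a secreted factor of the TGF-beta superfamily, had 0, 0 and 2 UMIs in WT and 11, 61 and 189 UMIs in TNF-Tg members. Its ratio of pooled CPM was 43.7 with an exact counting interval of 12 to 363 (edgeR FDR 0.00774), and its UMIs lay in 37 of 66 members at 20 weeks. *Rgcc* was at 0 in all 3 WT libraries and at 122, 49.6 and 186 CPM in TNF-Tg members, at least 22.6 times higher when 3 UMIs are taken as the floor over the WT group (edgeR FDR 0.0161). Its UMIs lay in 2, 4 and 11 TNF-Tg members and 22 of 24, 15 of 18 and 73 of 160 of them in 1 member each. In other endothelium *Rgcc* was at 38.6, 27.6 and 33.2 CPM in WT against 287, 637 and 835 CPM in TNF-Tg libraries, so the gene was high in few members and rose in the neighbouring cells as well.

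The remaining 3 were of lower level. *Cdh13*, which encodes a membrane-anchored cadherin, was at 18.6, 46.8 and 13.6 CPM in WT against 71.4, 201 and 189 CPM in TNF-Tg members (log2 2.73, SE 0.53, edgeR FDR 0.0272). *Plcd1*, a phospholipase C gene, was at 0, 0 and 13.6 CPM in WT against 51.0, 49.6 and 74.2 CPM in TNF-Tg members (log2 2.83, SE 0.63, edgeR FDR 0.0466). *Slc41a1*, a magnesium transporter gene, was at 0, 15.6 and 64.6 CPM in WT against 204, 124 and 455 CPM in TNF-Tg members (log2 2.72, SE 0.60, edgeR FDR 0.0466), with 258 of its UMIs at 20 weeks in 1 member, more than in all others together. Without the largest member of each library *Slc41a1* and *Plcd1* had edgeR FDRs of 0.0906 and 0.113, while *Cdh13* still passed at 0.0392.

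By the same rule 10 genes had the largest fall. *Igfbp3*, which encodes a carrier of insulin-like growth factors, was at 261, 77.9 and 184 CPM in WT against 35.7, 27.5 and 27.8 CPM in TNF-Tg members, 5.59 times lower (log2 -2.48, SE 0.39, edgeR FDR 0.00774). *Col23a1*, a membrane collagen gene, was at 186, 249 and 272 CPM in WT against 117, 11 and 13.9 CPM in TNF-Tg members (log2 -2.89, SE 0.61, edgeR FDR 0.0437). *Lcn2*, which encodes lipocalin 2, was at 354, 468 and 534 CPM in WT against 270, 74.3 and 88.2 CPM in TNF-Tg members (log2 -1.83, SE 0.41, edgeR FDR 0.0466). These 2 were lowest at 14 and 20 weeks, like *Ccl21a* and *Reln*. *Adgrg3*, an adhesion receptor gene, was at 316, 101 and 228 CPM in WT against 76.5, 46.8 and 54.5 CPM in TNF-Tg members (log2 -1.85, SE 0.36, edgeR FDR 0.0272). In the WT library of 20 weeks 1 member held 57 of 80 *Col23a1* UMIs, 99 of 157 *Lcn2* UMIs and 45 of 67 *Adgrg3* UMIs, and without the largest members these 3 genes had edgeR FDRs of 0.115, 0.120 and 0.176.

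The other genes of this rule, *Abcg2*, *Stmn2*, *Ank*, *Rasgrp2*, *Fgl2* and *Col18a1*, fell by 1.56 to 1.82 on the log2 scale. *Abcg2*, which encodes an efflux transporter, was at 130, 171 and 228 CPM in WT against 66.3, 63.3 and 44.1 CPM in TNF-Tg members (log2 -1.80, SE 0.29, edgeR FDR 0.00977), with UMIs spread over 29 of 66 members at 20 weeks. *Stmn2*, which encodes a stathmin, was at 168, 265 and 275 CPM in WT against 76.5, 85.4 and 56.8 CPM in TNF-Tg members (log2 -1.82, SE 0.29, edgeR FDR 0.00774). Without members that had genes of other lineages *Stmn2* was at an edgeR FDR of 0.527 and *Abcg2* at 0.00568.

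Genes of blood capillaries were read in the members as well, since cells or RNA of other endothelium could add them. Of 12 listed, 7 were tested, 2 were higher and 1 was lower in TNF-Tg. *Ednrb*, which encodes the endothelin receptor type B, was at 74.5, 46.8 and 126 CPM in WT against 204, 498 and 531 CPM in TNF-Tg members (log2 2.19, SE 0.41, edgeR FDR 0.0249). Other endothelium went the opposite way, from 265, 244 and 221 CPM to 75.5, 50.3 and 40.5 CPM, and the UMIs of *Ednrb* lay in 53 of 66 members at 20 weeks. *Car4*, the carbonic anhydrase gene of aerocytes, was at 18.6, 31.2 and 6.80 CPM in WT against 51.0, 113 and 101 CPM in TNF-Tg members (log2 2.56, SE 0.55, edgeR FDR 0.0437), against 381 to 607 CPM in other endothelium. Its 87 UMIs at 20 weeks lay in 7 of 66 members, 58 of them in 1. *Hpgd* was at 18.6, 257 and 184 CPM in WT against 15.3, 19.3 and 44.1 CPM in TNF-Tg members (log2 -2.52, SE 0.49, edgeR FDR 0.0278), overlapped between genotypes, and had UMIs in 13 of 71 WT members.

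Of the 18 genes that the study named in endothelium, 14 were tested and 7 passed. The study chose them on these same libraries, so their count is no independent evidence of direction. *Igfbp7*, *Col4a2*, *Hspg2*, *Col4a1* and *Fn1* were higher and *Hpgd* and *Cyp4b1* lower. *Cyp4b1* was at 18.6, 281 and 224 CPM in WT against 86.7, 19.3 and 24.4 CPM in TNF-Tg members (log2 -2.54, SE 0.56, edgeR FDR 0.0466) and overlapped between genotypes. Of 30 genes of the BMP and TGF-beta pathway, which the study examined in blood endothelium and mesenchyme, 14 were tested and none passed. The median log2 fold change was -0.25. In 3 of the 14, *Tgfbr2* among them, each TNF-Tg library lay below each WT library, as for 6.31% of all genes tested. In none did each TNF-Tg library lie above each WT library. *Bmpr2* was at 74.5, 296 and 255 CPM in WT against 133, 215 and 168 CPM in TNF-Tg members (log2 -0.42, SE 0.34, edgeR FDR 0.744). In other endothelium it was at 1446, 1597 and 1577 CPM in WT against 677, 666 and 553 CPM in TNF-Tg libraries, well above the members in both genotypes. *Tgfbr2* was at 819, 795 and 877 CPM in WT against 622, 413 and 334 CPM in TNF-Tg members (log2 -0.91, SE 0.25, edgeR FDR 0.114).

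The change with genotype was then compared with that of other endothelium from the same libraries, with the library as a block. Other endothelium pools several endothelial types, and the study reported that some of their proportions differed in TNF-Tg lungs. A shift in these proportions cannot be told apart here from a change of expression within a type, and neither was tested. The difference passed for 121 of 4165 genes (2.91%), 59 (1.42%) as higher in lymphatic endothelium and 62 (1.49%) as lower. It passed for 13 to 330 genes when 1 library was left out, 13 without the WT library of 20 weeks and 330 without the TNF-Tg library of 8 weeks. A higher value means either a larger rise or a smaller fall in the members. *Lyve1* shows the latter. In other endothelium it was at 452, 636 and 499 CPM in WT against 42.8, 6.05 and 11.9 CPM in TNF-Tg libraries, a far larger fall than in the members (difference 4.08 on the log2 scale, SE 0.51, edgeR FDR 0.00257). *Ednrb* differed by 4.41 (SE 0.55, edgeR FDR 0.00257), having risen in the members and fallen elsewhere. *Gdf10* differed by 5.53 (SE 0.86, edgeR FDR 0.00594) and *Igf1* by 3.49 (SE 0.80, edgeR FDR 0.0366), both at 0.556 to 15.5 CPM in other endothelium with no change there past the test. *Gja4* differed by 1.68 (SE 0.35, edgeR FDR 0.0252), with 184 to 468 CPM in other endothelium.

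Class I genes stood out in this comparison. Of the 12 tested, 6 differed as higher in lymphatic endothelium, namely *H2-K1*, *H2-D1*, *B2m*, *H2-T23*, *H2-Q4* and *H2-Q7*, by 1.16 to 1.79 on the log2 scale, and none as lower. For *H2-K1* the difference was 1.59 (SE 0.21, edgeR FDR 0.00291). In other endothelium *H2-K1* was at 2207, 2131 and 2194 CPM in WT against 2118, 1509 and 1435 CPM in TNF-Tg libraries. The WT members had lain below that level and the TNF-Tg members reached or passed it. *B2m* differed by 1.16 (SE 0.23, edgeR FDR 0.0200), at 2968 to 3649 CPM in all 6 libraries of other endothelium.

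Matrix genes differed in the opposite direction, 5 of 17 as lower in lymphatic endothelium and none as higher. *Col18a1* was at 14.4, 12.5 and 11.8 CPM in WT against 41.9, 113 and 104 CPM in TNF-Tg libraries of other endothelium, where it rose while it fell in the members (difference -4.37, SE 0.34, edgeR FDR 4.07e-05). At 14 weeks TNF-Tg members had 102 CPM and other endothelium 113 CPM, and at 20 weeks they had 62.6 and 104 CPM. *Hspg2* differed by -2.72 (SE 0.47, edgeR FDR 0.0106) and *Col4a1* by -0.75 (SE 0.18, edgeR FDR 0.0468), since both rose further in other endothelium. *Lama4* differed by -2.35 (SE 0.44, edgeR FDR 0.0170) and *Timp3* by -1.40 (SE 0.28, edgeR FDR 0.0200). *Nrp2*, which encodes a co-receptor of VEGF-C, was at 1061, 912 and 1050 CPM in WT against 979, 542 and 466 CPM in TNF-Tg members, while other endothelium rose from 16.2, 20.4 and 18.7 CPM to 67.0, 125 and 152 CPM (difference -3.18, SE 0.47, edgeR FDR 0.00547).

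**Figure D4:**
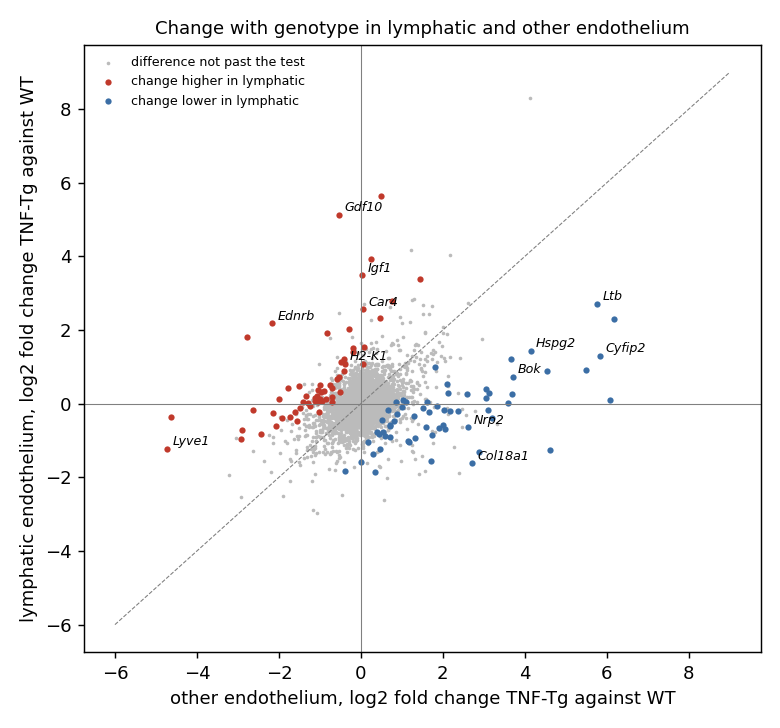
Log2 fold change of TNF-Tg against WT in lymphatic endothelium (y axis) against that in other endothelium (x axis), 1 point a gene, with the dashed line where both are equal. The 59 genes in red differed as higher and the 62 in blue as lower in lymphatic endothelium at an edgeR FDR under 0.05, and the others are in grey. *Ednrb* lies at upper left, since it rose in lymphatic and fell in other endothelium, and *Col18a1* at lower right.

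The members were not uniform in *Ccl21a*, which spread widely in the later TNF-Tg libraries. Per 10000 UMIs of a member the median was 159, 288 and 249 in WT and 337, 127 and 26.4 in TNF-Tg libraries. Members without a *Ccl21a* UMI numbered 0, 1 and 3 in WT and 1, 6 and 16 in TNF-Tg libraries, the latter including 24.2% of members at 20 weeks despite their greater depth. The highest member at 20 weeks still had 442 per 10000 UMIs, so that the TNF-Tg library held members at the WT level beside others at or near 0.

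**Figure D5:**
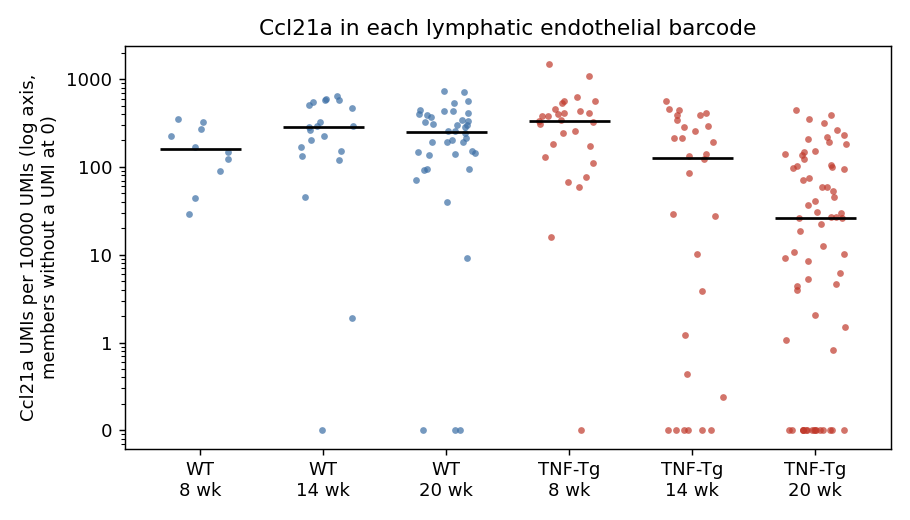
*Ccl21a* UMIs per 10000 UMIs (y axis, log scale, with members without a UMI drawn at 0) in each lymphatic endothelial barcode of the 6 libraries (x axis), with the library median as a bar. The median was 337 at 8 weeks and 26.4 at 20 weeks in TNF-Tg, where 16 of 66 members lay at 0.

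To describe this spread, the 66 TNF-Tg members of 20 weeks were ranked by *Ccl21a* and cut into 3 groups of 22. The groups are ranges and not cell types, with 3 members within 1.5 times of the lower bound. *Ccl21a* is itself a gene of the rule. A member without its UMIs needed at least 2 of *Prox1*, *Mmrn1* and *Reln*, and a member with them only *Prox1* or *Mmrn1*. Levels along this rank therefore depend in part on the rule, and the size of that part was not tested. The lowest 22 had at most 4.40 and the highest 22 at least 70.4 *Ccl21a* UMIs per 10000. The lowest 22 had a median of 18 of the 25 outside markers, against 21.5 in the highest 22, at median depths of 10850.5 and 12960.5 UMIs. The members at both ends had most of these markers at the median. The lowest and the highest 22 each had 5 members with genes of other lineages, and the middle 22 had 3.

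Several lymphatic genes differed in level between the 2 ends. *Lyve1* was at 105 CPM in the lowest and 1963 CPM in the highest 22, with UMIs in 4 and 21 members. *Flt4* was at 257 and 870 CPM, so both were higher where *Ccl21a* was. In the opposite order, *Foxc2* was at 156 and 34.3 CPM (11 and 7 members with a UMI) and *Cldn11* at 459 and 175 CPM (21 and 15 members). *Ackr4* was at 654 CPM in the lowest 22, in 10 members, and had no UMI in the highest 22. The valve genes *Gata2* (156 and 17.1 CPM, in 16 and 4 members), *Efnb2* (265 and 123 CPM) and *Foxp2* (124 and 71.9 CPM) had this order too. Not all valve genes did, with *Gja4* at 276 and 298 CPM and *Itga9* at 241 and 264 CPM. Some genes lay in few members. *Vcam1* was at 755 and 41.1 CPM, in 8 of the lowest and 7 of the highest 22. *Adm* was at 696 and 10.3 CPM, in 5 and 2 members. *Ccl2* was at 805 and 192 CPM, in 5 and 9 members, so that the end with more CPM had fewer members with a UMI. Without members that had genes of other lineages, *Ackr4* still had 124 UMIs in 8 of the lowest 17 and none in the highest 17, and *Lyve1* had 17 UMIs in 3 and 466 UMIs in 16 of them.

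Over the 66 members the Spearman correlation with the *Ccl21a* share was 0.77 for *Nrp2*, 0.66 for *Lyve1* and 0.56 for *Flt4*, and -0.46 for *Gata2*, -0.45 for *Ackr4* and -0.41 for *Gdf10*. The members share a library and its depth, *Ccl21a* helped to choose them, and the values are a description. In the TNF-Tg library of 14 weeks (n = 30) *Lyve1* stood at 0.56, *Flt4* at 0.54, *Ackr4* at -0.53 and *Gata2* at -0.52. In the WT library of 20 weeks (n = 40) *Lyve1* stood at 0.06, *Flt4* at 0.20 and *Gata2* at -0.35, and *Ackr4* had no UMI there. In the TNF-Tg library of 8 weeks (n = 28) *Lyve1* stood at -0.00061, *Flt4* at 0.0049, *Gata2* at -0.03 and *Ackr4* at -0.30. In the WT library of 14 weeks (n = 21) *Lyve1* stood at -0.10, *Flt4* at 0.15, *Gata2* at -0.41 and *Ackr4* at -0.37. The differences between libraries were not tested.

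Genes of other lineages were given their own count, since mixed barcodes could add RNA. The 9 mesenchymal genes held 2, 13 and 3 UMIs in WT and 15, 1310 and 315 UMIs in TNF-Tg members, the last 2 equal to 3607 and 365 CPM. In the TNF-Tg library of 14 weeks 13 of 30 members had at least 2 of these genes, and 716 of the 723 UMIs of the smooth muscle genes *Acta2* and *Tagln* lay in 5 members. Immune genes held 0 to 13 UMIs in 5 libraries and 145 UMIs in the TNF-Tg library of 20 weeks, and the epithelial genes held 0 to 13 UMIs. In the fit without all members that had 2 or more such genes of any 1 lineage, 44 of the 51 genes past the test could still be tested and 30 passed in the same direction. Among these, *Cldn11* had a log2 fold change of 4.69 (edgeR FDR 0.000919), *Fn1* of 3.80 (0.00178), *Ltb* of 2.37 (0.0100), *Relb* of 2.97 (0.00485), *H2-K1* of 1.14 (0.0275) and *Col18a1* of -2.38 (0.00147). *Col4a1* (0.132) and *Hspg2* (0.0785) did not pass, and *Igf1* could not be tested.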

How the data were processed

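Cells of pooled female mouse lungs were sorted, captured on a 10x Chromium instrument and sequenced, with 1 library for each genotype (WT and TNF-Tg) and age. The authors deposited UMI counts per gene and barcode as whole numbers without normalization, for 32285 genes. The submitters' notes name Cell Ranger 5.0.0 and genome build mm10, while the file headers name Cell Ranger 5.0.0 for the libraries of 8 weeks and 6.0.1 for the others. The labels state 5000 to 6000 cells captured per condition. The files held 6322 to 7855 barcodes a library, of which 5817 to 6961 passed the filters on genes and mitochondrial UMIs.

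UMIs of the members were summed per library (53722 to 862061 UMIs a sum), and genotypes were tested over these 6 sums with edgeR 4.0.16 in R 4.3.3 (filterByExpr, TMM, quasi-likelihood F test, Benjamini-Hochberg adjustment over all genes tested, FDR under 0.05). The difference from other endothelium was the interaction of genotype and cell class over 12 sums, with the library as a block. Shares were compared by an exact permutation test (scipy 1.17.1). Scrublet in scanpy 1.11.5 scored doublets at 0.8% per 1000 kept barcodes, and they were kept except in 1 alternative. Fits were tested on simulated data, where 97.6% of genes changed by 2 on the log2 scale were recovered between genotypes and 87.4% in the difference test, and 0.128% and 0.0253% of unchanged genes were called. These data had 1 dispersion for all genes (0.0464), no change with age and no single members that dominate a sum. The rates are therefore a check of the code and not error rates of the real sums.

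Genes named were the rule genes and lymphatic markers, the 10 largest changes in each direction among genes past the test with at least 50 CPM and no overlap between genotypes (5 each for the difference), and from each pathway list the genes past the test and up to 3 others with a known role. *Ifngr2*, *Il6*, *Ptprc*, *Epcam*, *Cdh1*, *Nfkb2*, *Bcl3*, *Tnip1*, *Ccl7*, *Cxcl10*, *Acta2*, *Tagln*, *H2-T23*, *H2-Q4*, *H2-Q7* and *Foxp2* were named beyond this rule after their values were seen. The members and lists were chosen with earlier results of these data known. Positions are from GENCODE vM21 on GRCm38. Alternatives were RLE scaling, DESeq2 1.42.0, no filter, age as a block, other member rules, thinned counts and leaving out libraries. Some genes of these lists were counted in the tests and are not reported here by name.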

Additional observations from a re-analysis of the deposited data

Results flagged for a closer look

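The 10 genes below were singled out because their change with genotype differed between lymphatic and other endothelium of the same libraries by the test of that difference, among genes of 50 CPM or more whose genotypes did not overlap. In lymphatic endothelium minus other endothelium, the log2 change was higher for *Gdf10* (5.53), *Ednrb* (4.41), *Lyve1* (4.08), *Igf1* (3.49) and *Car4* (2.70). It was lower for *Col18a1* (-4.37), *Cyfip2* (-4.04), *Ltb* (-2.81), *Hspg2* (-2.72) and *Bok* (-2.72). For *Ltb*, *Hspg2*, *Cyfip2* and *Bok* both classes were higher in TNF-Tg, and other endothelium had started from less than 21 CPM in each WT library. *Cyfip2*, a gene of actin regulation, was at 18.6, 15.6 and 34.0 CPM in WT against 61.2, 57.8 and 75.4 CPM in TNF-Tg members, and at 0.516, 1.12 and 1.10 CPM against 88.5, 39.4 and 32.5 CPM in other endothelium. *Bok*, a gene of the BCL2 family, was at 112, 179 and 173 CPM against 296, 187 and 336 CPM in the members, and at 2.41, 2.34 and 3.31 CPM against 11.5, 38.6 and 56.6 CPM in other endothelium. *Col18a1* and *Ednrb* were the 2 of the 10 that changed in opposite directions past the test in both classes (each tested at an edgeR FDR under 0.05). For *Car4* 34 of 41 UMIs at 14 weeks and 58 of 87 at 20 weeks lay in 1 TNF-Tg member each.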

How the results depend on the processing

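Of the 51 genes past the test between genotypes, none that could be tested under an alternative changed sign there, and 51 were called again with RLE scaling, 39 with age as a block, 39 with DESeq2, 38 without doublets, 43 with at least 3 rule genes, 30 with all 4, 33 without the largest member of each library and 30 without members of mixed lineage. The settings with all 4 rule genes, without the largest member or with members scaled equally, and the difference test without mixed lineages, were added after the data had been seen. Without a filter on low counts 289 genes were called between genotypes, 209 higher and 80 lower, and 302 in the difference test, 154 higher and 148 lower. Without doublets 10 genes were lower. With barcodes thinned to 1000 UMIs 266 genes could be tested and 13 passed (6 higher, 7 lower), and with library sums thinned to the smallest 881 could be tested and 8 passed (8 higher, 0 lower), 19 in the difference test (17 higher, 2 lower). Of the 51 genes, 8 could be tested with barcodes thinned and 2 passed again, and 23 with sums thinned and 8 passed again. Fewer genes tested is part of these 2 settings. In the latter 2 of the 121 genes of the difference test changed sign.

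Leaving out 1 library at a time gave 3 to 261 genes between genotypes (3 to 137 higher, 0 to 124 lower) and 13 to 330 in the difference test (9 to 168 higher, 4 to 162 lower). The fewest came without the WT library of 20 weeks and the most without the TNF-Tg library of 8 weeks. Without the WT library of 20 weeks 359 genes, and without the TNF-Tg library of 20 weeks (9 called) 295 genes, were at an unadjusted p under 0.05. The difference in mean share ranged from 0.111 to 0.419 percentage points of all kept barcodes and from 0.123 to 0.672 of endothelial barcodes. Libraries of the same age were paired in the fit with age as a block, which called 52 genes, 39 of them among the 51. The test of shares did not pair ages.

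Among named genes that did not pass the test, the log2 fold change had another sign in some settings. *Tbx1* was at -0.14 without mixed lineages, -0.14 without the largest members and -0.29 with members scaled equally, and at -0.0605 to 0.19 when 1 library was left out. *Gata2* was at -0.21 without the largest members and -0.32 with members scaled equally, and at -0.30 to 0.86 when 1 library was left out. *Cp* was at -0.00029 with RLE scaling, -0.0096 with age as a block and -0.0019 with DESeq2, and at -0.14 to 0.11 when 1 library was left out. *Klhl4* was at -0.32 with sums thinned and -0.0814 without mixed lineages, and at -0.0495 to 0.26 when 1 library was left out. *Pgm5* was at -0.32 without mixed lineages and -0.12 with all 4 rule genes. *Fxyd6* was at 0.19 with barcodes thinned and 0.16 with members scaled equally, *Itga9* at 0.11 with members scaled equally and *Lama4* at 0.0263 with all 4 rule genes. When 1 library was left out *Pdpn* was at -0.85 to 0.0871 and *Sema3a* at -0.20 to 1.10. The cause was not tested.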

Other observations

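Genes of the cell cycle, stress and other vessel types were also read in the members. Of 10 proliferation genes 2 were tested, of 14 immediate early and stress genes 7, and of 10 arterial and venous genes 3. *Gja4*, also a gene of arteries, was the 1 that passed among these. *Mki67*, a marker of cycling cells, had 0, 0 and 9 UMIs in WT and 1, 0 and 16 UMIs in TNF-Tg members. *Plvap*, which encodes a protein of fenestrated and venous endothelium, was at 316, 374 and 326 CPM in WT against 760, 322 and 401 CPM in TNF-Tg members. The 5 platelet genes held 0, 29 and 41 UMIs in WT and 14, 75 and 97 UMIs in TNF-Tg members. The 5 mesothelial genes held 19, 37 and 118 UMIs in WT and 49, 74 and 159 UMIs in TNF-Tg members, and *Msln*, *Upk3b*, *Wt1* and *Lrrn4* were at 0 in the WT libraries.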
